A study of Mus musculus with 4 samples.

Results

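The signal recognition particle (SRP) is the cytosolic particle that binds a signal peptide as it leaves the ribosome and brings the ribosome to the endoplasmic reticulum. It is built on the 7SL RNA, a short RNA made by RNA polymerase III, and on proteins that the genes Srp9, Srp14, Srp19, Srp54, Srp68 and Srp72 encode. At the membrane the particle meets its receptor, whose alpha subunit (Srpr) is held there by the membrane-anchored beta subunit (Srprb). The genes described here are 10 gene symbols of the deposited table, chosen by name out of 49568. They are 2 symbols of 7SL RNA (Rn7s1 and Rn7s2), 7 of SRP proteins (Srp9, Srp14, Srp19, Srp54a, Srp54b, Srp68 and Srp72) and 1 of the receptor (Srprb). All 10 were found.

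RNA was sequenced from purified migrasomes, which are vesicles that grow on the retraction fibres behind a migrating cell, and from cytosol, in mouse material. Each group had 2 libraries, 4 in all. The labels name no cell type, strain or treatment. Nor do they say that the libraries of a group came from separate preparations, so p-values measure the spread between these libraries only, which may be technical. Libraries held between 5171092 and 8608369 reads assigned to genes, fewer in migrasome than in cytosol. The values are read counts that the authors normalised with 1 size factor per library, here called normalised read counts. Each difference is the migrasome mean minus the cytosol mean of log2(value + 1), given ± its standard error (SE). A gene rose or fell where limma's adjusted p (Benjamini-Hochberg over 10860 genes) was under 0.05. On that rule 26.4% of all genes tested were called, 8.68% higher in migrasome and 17.7% lower. The values of the 2 groups did not overlap in 69.5% of all genes tested, so a lack of overlap alone is common. In whole fractions of this kind, more RNA per particle and a different mix of particles cannot be told apart. Of the 5 nuclear RNAs listed as fraction markers, 4 were tested and 1, Rn7sk, fell. The 5 together summed to 80588 and 77508 in cytosol and to 12073 and 16908 in migrasome, and the part of this difference in the results was not tested. These sums come mostly from Rn7sk, at 69225 and 71563 in cytosol and 6647 and 12733 in migrasome. Malat1 (-0.79), Neat1 (-0.86) and Kcnq1ot1 (-0.58) were lower without passing. Of 9 fibroblast genes listed, 8 were tested: Vim rose (0.94), the collagens Col1a1 (-1.97), Col1a2 (-2.20) and Col3a1 (-2.03) and the receptors Pdgfra (-1.64) and Pdgfrb (-2.05) fell, and S100a4 and Thy1 did not pass. That list summed to 53827 and 49358 in cytosol and to 73046 and 59289 in migrasome, mostly from Vim and S100a4. The listed epithelial genes summed to under 3 in each library, as did the endothelial genes. The leukocyte genes summed to 16.3 and 24.7 in cytosol and to 14.1 and 11.8 in migrasome. The neural genes summed to 29.5 and 30.2 in cytosol and to 72.1 and 63.2 in migrasome. Of these Map2 rose (1.31), and Tubb3 and Gfap did not pass.

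The annotated sequences of the 7SL genes bear on what the separate values of Rn7s1 and Rn7s2 can mean. In GENCODE M21 (GRCm38) both lie on chromosome 12, on opposite strands, each as a single-exon RNA of 300 bases, and the 2 sequences differ at 0 bases. Rn7s6, on chromosome 6, is a further 7SL symbol of the table. It is not among the 10 genes and was added after its values were seen. In the 7SL RNA the 5′ and 3′ ends fold together into the Alu domain, which the Srp9 and Srp14 proteins bind, and the middle forms the S domain, which carries the other SRP proteins.

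The 7SL RNAs were much higher in migrasome. Values are given for replicate 1 and then replicate 2 throughout. Rn7s1 stood at 1380 and 955 in cytosol and at 10143 and 7665 in migrasome. Both migrasome libraries lay above both cytosol libraries, and the mean was 7.62 times as high. The log2 difference of Rn7s1 was 2.94 ± 0.25 (SE, limma adjusted p = 0.00036). Rn7s2 stood at 1333 and 1010 in cytosol and at 6754 and 6901 in migrasome, again with no overlap. Its mean was 5.83 times as high (2.56 ± 0.22 on the log2 scale, limma adjusted p = 0.00036). Among all genes tested the median log2 difference was -0.0043, and that of the 2 symbols of 7SL was 2.75.

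Because the annotated sequences are identical, a read that lies within the 300 bases fits both copies equally well, and no source used here gives how the authors assigned such reads. The separate values of Rn7s1 and Rn7s2 are therefore uncertain. Their sum does not depend on how reads were split between the copies. It would still miss any such reads that were left out of the counts. Summed before the test, the pair differed by 2.76 on the log2 scale (limma adjusted p = 0.00042). In cytosol the pair made up 0.0464% (replicate 1) and 0.0333% (replicate 2) of all assigned reads. In migrasome it made up 0.229% (replicate 1) and 0.214% (replicate 2). The Wilson 95% intervals were 0.0449% to 0.0480%, 0.0321% to 0.0345%, 0.224% to 0.233% and 0.210% to 0.218% in that order. These intervals cover counting error only, since several reads can come from 1 molecule. The shares do not depend on the size factors, and the lowest migrasome share was above the highest cytosol share.

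Rn7s6, which shares part of its annotated sequence with the other copies, showed the same kind of difference. It stood at 3786 and 2441 in cytosol and at 14982 and 15752 in migrasome (log2 difference 2.34 ± 0.26, limma adjusted p = 0.00054). It was the most abundant of the 3 symbols in every library. Of its stretches of 50 bases, 51.2% also occur in Rn7s1, so its reads are only partly its own. Of the other annotated models that share a 50-base stretch with Rn7s1, 4 are in the table: Gm26461, Gm24514, Gm24105 and Gm23153. All 4 rose, beside 8.68% of all genes tested. They were picked by sequence and need not stand for separate RNAs, so the 4 calls are no tally of separate genes. Gm23153 rests on few reads, from 13 to 60 per library. Gm24105 stood at only 5.43 and 4.12 in cytosol (7 and 6 reads) and at 38.2 and 38.2 in migrasome (27 and 29 reads). It passed the filter on low values through its migrasome libraries alone, so a rise was nearly the only call open to it. Gm26461, the one with the most shared stretches, stood at 383 and 272 in cytosol and 1564 and 2045 in migrasome (2.47 ± 0.24). Gm24514 had a log2 difference of 2.56 ± 0.22, Gm24105 of 2.77 ± 0.43 and Gm23153 of 2.24 ± 0.43 (limma adjusted p from 0.00036 to 0.0051). Reads of 1 RNA could be assigned to any of these models, so they are no independent measurements.

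**Figure D1:**
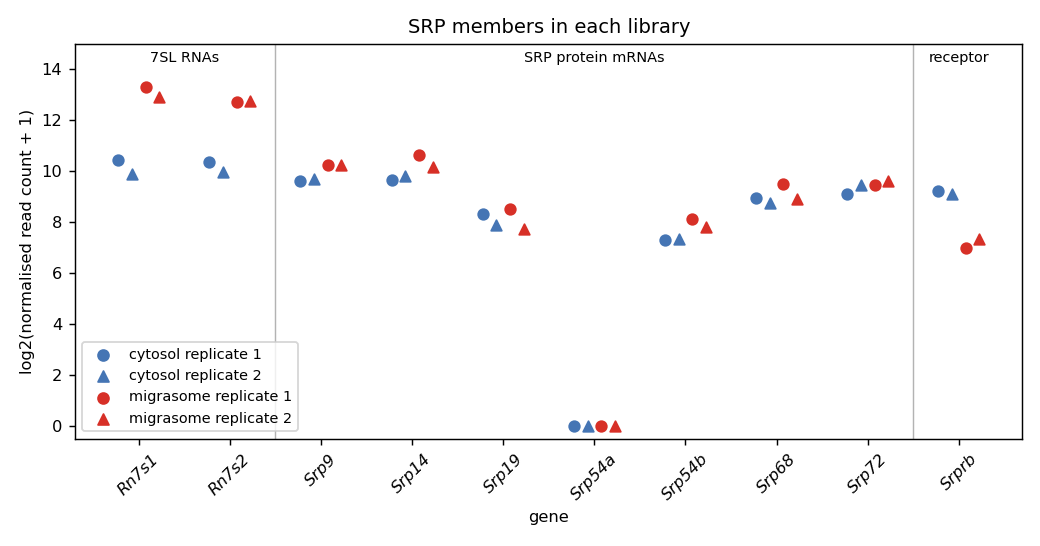
Values of the 10 genes in each of the 4 libraries, as log2(normalised read count + 1), with circles for replicate 1 and triangles for replicate 2. The 7SL symbols and Srprb separate cytosol (blue) from migrasome (red) widely and in opposite directions, the SRP protein mRNAs lie close together, and Srp54a is at 0 in every library.

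The mRNAs of the SRP proteins had small differences beside those of 7SL. Of the 7 symbols, 6 passed the filter on low values; 1 rose and 5 missed the threshold. No SRP protein mRNA fell by limma, 0 had a negative difference at an unadjusted p under 0.05, and edgeR and DESeq2 also called 0 lower and 2 higher. The median log2 difference of the 6 was 0.46. The share called higher, 16.7%, is a single gene and stands beside 8.68% of all genes tested. The groups did not overlap in 66.7% of the 6, beside 69.5% of all genes tested.

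For the Alu domain, Srp9 (chr1:182124737-182132407, plus strand), whose protein pairs with that of Srp14 to slow elongation on the ribosome, stood at 782 and 835 in cytosol and at 1219 and 1231 in migrasome. The groups did not overlap, and the log2 difference of Srp9 was 0.60 ± 0.19 (limma adjusted p = 0.046). That call was lost without cytosol replicate 1 (adjusted p = 0.31) and without cytosol replicate 2 (adjusted p = 0.23). The antisense pseudogene Gm17968, which covers 14.1% of the exon length of Srp9, was listed at 0. The call of Srp9 was also lost with every library scaled to the same total (0.33, adjusted p = 0.20), with quantile normalization (0.41, adjusted p = 0.11), with no filter and without the variance trend. Srp14 (chr2:118475850-118479711, minus strand) stood at 799 and 912 in cytosol and at 1601 and 1140 in migrasome. These groups did not overlap either, yet the log2 difference of 0.66 ± 0.23 missed the threshold (limma adjusted p = 0.055, 95% interval 0.16 to 1.17). It was called by edgeR (adjusted p = 0.047), by DESeq2 (adjusted p = 0.028) and by limma once migrasome replicate 2 was left out (0.91, adjusted p = 0.0021). Without migrasome replicate 1 the difference was 0.42 (adjusted p = 0.15), and at the same total per library it was 0.39 (adjusted p = 0.18).

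For the S domain, Srp54b (chr12:55155104-55189573, plus strand) encodes the GTPase that recognises the signal peptide and the receptor. It stood at 157 and 159 in cytosol and at 280 and 222 in migrasome, with no overlap. Its log2 difference of 0.66 ± 0.23 did not pass (limma adjusted p = 0.059, 95% interval 0.14 to 1.17), but quantile normalization (0.90, adjusted p = 0.022) or leaving out migrasome replicate 2 (0.82, adjusted p = 0.011) brought a call. The difference of Srp54b was 0.49 without migrasome replicate 1 (adjusted p = 0.15) and 0.39 at the same total per library (adjusted p = 0.22). Srp54a (chr12:55080262-55115367, plus strand), the neighbouring copy, was listed at 0 in all 4 libraries, which allows up to 3 reads a library, a value of 2.06 to 4.24. The copies share much of their sequence. Of the 50-base stretches of Srp54a transcripts, 70.5% also occur in Srp54b or Srp54c, and 89.3% of those of Srp54b occur in the other copies. Srp54c is not analysed here. A read within a shared stretch does not tell which copy the RNA came from, and how such reads were assigned is not given. The other stretches of Srp54a occur in neither of these copies, and Srp54a was listed at 0.

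Srp68 and Srp72, whose proteins form the large heterodimer on the S domain, were measured with at least 364 reads in each library. Srp68 (chr11:116245166-116274217, minus strand) stood at 499 and 435 in cytosol and at 716 and 479 in migrasome, so that cytosol replicate 1 lay between the migrasome libraries. Its log2 difference was 0.33 ± 0.24 (limma adjusted p = 0.32, 95% interval -0.21 to 0.87), and it was called once migrasome replicate 2 was left out (0.62, adjusted p = 0.026). Without migrasome replicate 1 the difference of Srp68 was 0.04 (adjusted p = 0.91), and at the same total per library it was 0.06 (adjusted p = 0.88). Srp72 (chr5:76974683-76999937, plus strand) stood at 555 and 695 in cytosol and at 701 and 795 in migrasome, with a log2 difference of 0.27 ± 0.21 (limma adjusted p = 0.36, 95% interval -0.21 to 0.74). Its groups did not overlap, though cytosol replicate 2 and migrasome replicate 1 were almost equal. Srp19, whose protein binds 7SL in the nucleus before the Srp54 protein joins, stood at 315 and 233 in cytosol and at 366 and 215 in migrasome. The migrasome libraries enclosed the cytosol libraries, and the log2 difference was 0.05 ± 0.29 (limma adjusted p = 0.91, 95% interval -0.59 to 0.69). The intervals of Srp19, Srp68 and Srp72 leave room for changes of either sign, so these values do not show that the mRNAs were equal.

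The receptor went the other way. Srprb stood at 604 and 550 in cytosol and at 124 and 163 in migrasome, so that both migrasome libraries lay far below both cytosol libraries. It fell by 2.01 ± 0.23 on the log2 scale (limma adjusted p = 0.00055), and its mean was 4.01 times as high in cytosol. In GENCODE M21 the model of Srprb (chr9:103188032-103202137, minus strand) shares 20.7% of its exon length with Gm20425 on the same strand, which was listed at 0 in every library. Srpr, the alpha subunit, is not among the 10 genes and was taken from the list of other pathway genes. It stood at 812 and 953 in cytosol and at 235 and 246 in migrasome, and fell by 1.87 ± 0.21 (limma adjusted p = 0.00054). The 95% intervals of the receptor mRNAs overlapped, at -2.52 to -1.50 for Srprb and -2.33 to -1.41 for Srpr.

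**Figure D2:**
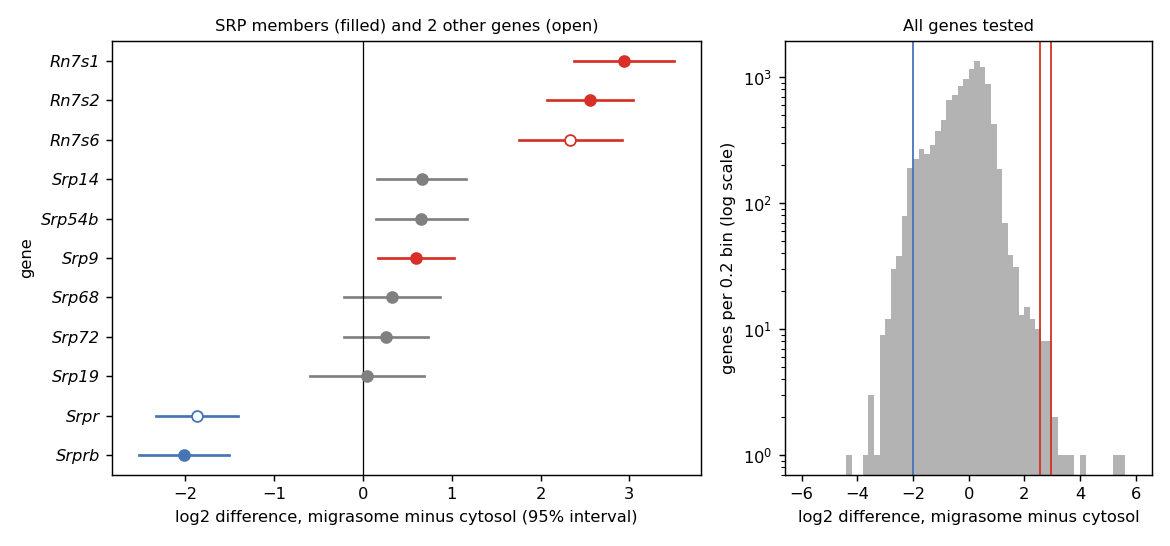
Left, log2 differences (migrasome minus cytosol) with 95% intervals for the 9 tested genes (filled) and for Rn7s6 and Srpr (open), red where the gene rose, blue where it fell and grey where it did not pass. Right, the same difference for all 10860 genes tested as a histogram with a log count axis, where the red lines are Rn7s1 and Rn7s2 and the blue line is Srprb: the 7SL symbols (2.94 and 2.56) lie in the upper tail and Srprb (-2.01) in the lower tail.

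The question of whether RNA and protein mRNAs of the particle keep the same proportion can be asked within a library, where the size factor cancels. The log2 ratio of summed Rn7s1 and Rn7s2 to the mean log2 level of the 6 SRP protein mRNAs was 2.58 and 2.12 in cytosol. In migrasome it was 4.63 and 4.74. The groups did not overlap, and the means were 2.35 ± 0.33 (SD, n = 2) in cytosol and 4.69 ± 0.081 in migrasome. The difference of 2.34 corresponds to a ratio 5.05 times as high in migrasome. An exact two-sided permutation test gave p = 0.33, which is the smallest value that 2 libraries against 2 can give. The plain ratio of summed normalised read counts, 7SL over SRP protein mRNAs, was 0.873 and 0.601 in cytosol and 3.46 and 3.57 in migrasome. These counts are not corrected for length, so the ratio compares libraries and does not tell which RNA was more abundant. With Rn7s6 added to the 7SL sum, a setting chosen after seeing the data, the difference was 2.11.

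The proportion between the mRNAs of the particle and of its receptor was compared in the same way. The mean log2 level of the 6 SRP protein mRNAs relative to that of Srpr and Srprb was -0.63 and -0.68 in cytosol and 1.99 and 1.43 in migrasome. The difference in this ratio was 2.37 (exact permutation p = 0.33, again the smallest possible). Both migrasome libraries lay above both cytosol libraries. The ratio of 7SL to the receptor mRNAs, which was added after seeing the data and follows from the other ratios, differed by 4.70 on the log2 scale.

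**Figure D3:**
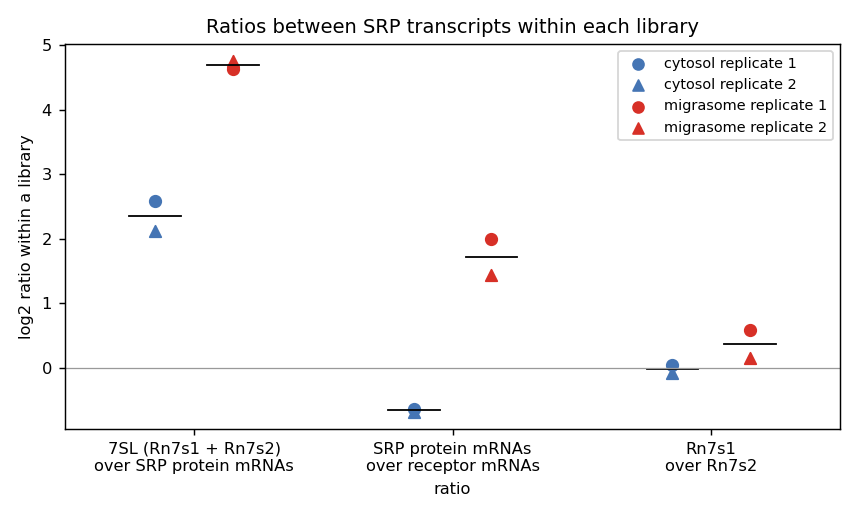
Log2 ratios within each library for 7SL over SRP protein mRNAs, SRP protein mRNAs over receptor mRNAs, and Rn7s1 over Rn7s2, with black bars at the mean of the 2 libraries of a group. The first ratio moves from 2.58 and 2.12 in cytosol to 4.63 and 4.74 in migrasome, and the second from below 0 to above 1.

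Levels can be compared between genes only per length, here as the normalised read count per kilobase of annotated exon. In cytosol Rn7s1 stood at 4600 and 3185 per kilobase, and Srp14, the highest of the SRP protein mRNAs on this scale, at 669 and 763. In migrasome Rn7s1 stood at 33809 and 25549 per kilobase and Srp14 at 1340 and 954. Rn7s2 stood at 4442 and 3365 per kilobase in cytosol and at 22514 and 23005 in migrasome. Rn7s1 alone thus holds only a part of the reads on 7SL. The other tested SRP protein mRNAs lay between 34.7 (Srp54b in cytosol replicate 1) and 261 (Srp68 in migrasome replicate 1). Srprb dropped from 141 and 128 per kilobase in cytosol to 29.0 and 38.1 in migrasome, below every tested SRP protein mRNA of the same library. The annotated exons of Srp9 (5541 bases) and Srp72 (5717 bases) take in every isoform, so the levels per kilobase of these genes can be too low. How fully a 300-base RNA was captured was not tested.

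Other genes of the pathway were described from lists that also take in 22 symbols of further targeting and insertion factors, some of which work without SRP. The lists hold 44 symbols, of which 38 are in the table and 37 were tested. Of these 6 rose, 21 fell and 10 missed the threshold, and their median difference was -0.86. The share that fell, 56.8%, stands beside 17.7% of all genes tested. The genes that rose were sensitive to the libraries used: without cytosol replicate 1 there was 1, and without cytosol replicate 2 there were 0 by limma, with 4 at an unadjusted p under 0.05. None of the 6 calls was kept with every library scaled to the same total, where 4 had an unadjusted p under 0.05, while edgeR and DESeq2 each called 7.

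Of the translocon genes, 10 of 12 were lower (83.3%, beside 17.7% of all genes tested). They encode the channel and its partners that receive the nascent chain from the SRP receptor. Without cytosol replicate 1 limma called 6 of them lower, and without cytosol replicate 2 it called 8. Ssr2, a subunit of the translocon-associated protein complex, stood at 1051 and 1244 in cytosol and 168 and 297 in migrasome (log2 difference -2.35 ± 0.28). Sec61a1, the channel itself, stood at 2285 and 2145 in cytosol and 618 and 708 in migrasome (-1.74 ± 0.20). Sec61a2 (-1.67), Tram2 (-1.68) and Ssr1 (-1.19) fell too, and leaving out cytosol replicate 1 ended the call of Tram2 (limma adjusted p = 0.11). The small channel subunits Sec61b (0.70, named after its values were seen) and Sec61g (0.63) rose. Leaving out either cytosol library ended both calls (limma adjusted p up to 0.27), and leaving out migrasome replicate 1 ended that of Sec61g. The signal peptidase, which cuts the signal peptide off, fell in 3 of 5 genes (60%, beside 17.7% of all genes tested). These were Spcs2 (-1.53 ± 0.20), Spcs3 (-1.48 ± 0.23) and Sec11a (-1.40 ± 0.22). No signal peptidase gene rose by limma, nor at an unadjusted p under 0.05, with 0 also by edgeR and DESeq2.

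The further targeting and insertion factors went both ways. Of 17 tested genes 7 fell (41.2%, beside 17.7% of all genes tested), 2 rose (11.8%, beside 8.68%) and 8 missed the threshold. Those called lower numbered 4 without cytosol replicate 1 and 5 without cytosol replicate 2. The subunits Emc1 (-2.01 ± 0.23), Emc7 (-1.96 ± 0.24) and Emc3 (-1.81 ± 0.22) of the membrane protein insertase EMC fell, as did Caml (-1.64 ± 0.33), part of the receptor for tail-anchored proteins. Wrb, the other part of that receptor, named after its values were seen, stood at 288 and 291 in cytosol and at 346 and 882 in migrasome without passing (0.93 ± 0.36, limma adjusted p = 0.083). The genes that rose were Emc2 (0.73 ± 0.21), a cytosolic subunit of EMC, and Bag6 (0.93 ± 0.24), a cytosolic chaperone of the tail-anchored route. Leaving out either cytosol library or migrasome replicate 1 ended the call of Emc2, and leaving out cytosol replicate 2 that of Bag6 (limma adjusted p up to 0.23). Naca and Btf3, the subunits of the nascent chain-associated complex that binds ribosomes beside SRP, rose by 0.75 ± 0.22 and 0.72 ± 0.22. Naca stood at 5186 and 5512 in cytosol and 9673 and 8374 in migrasome. Leaving out either cytosol library ended both (limma adjusted p up to 0.41), and with quantile normalization the differences were 0.14 for Naca and 0.12 for Btf3.

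**Figure D4:**
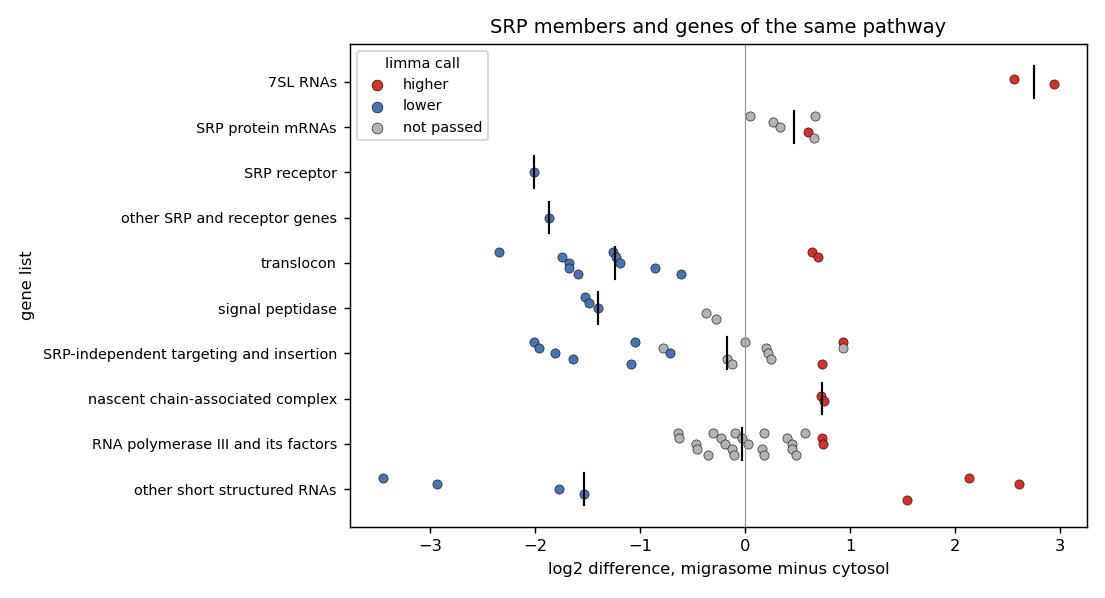
Log2 differences of every tested gene by list, with a black bar at the median of each list and colour by the limma call. The 7SL RNAs lie near 2.75, the SRP protein mRNAs around 0.46, and the receptor, translocon and signal peptidase genes mostly below -1.

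Of the machinery that makes 7SL, RNA polymerase III and its factors, 2 of 23 genes rose (8.70%, beside 8.68% of all genes tested), 0 fell by limma (1 at an unadjusted p under 0.05, with 1 by edgeR and 0 by DESeq2) and 21 missed the threshold, the median being -0.03. Polr3b, the second largest subunit, rose by 0.73 ± 0.21 and Ssb by 0.74 ± 0.22. Ssb encodes the La protein, which binds the ends of new RNA polymerase III transcripts. Leaving out either cytosol library or migrasome replicate 1 ended both calls (limma adjusted p up to 0.31), as did scaling to the same total, where 2 other genes of the list were called lower. Without migrasome replicate 2, 5 genes of the list were called higher and 2 lower. Gtf3a stood at 659 and 899 in cytosol and 956 and 1154 in migrasome without passing. The 7 other short structured RNAs all passed. Of these 3 were higher (42.9%, beside 8.68% of all genes tested) and 4 lower (57.1%, beside 17.7%). Rny3 (2.61 ± 0.30) and Rny1 (2.13 ± 0.27), the RNAs of Ro particles in the cytoplasm, rose, as did the vault RNA Vaultrc5 (1.54 ± 0.22), named after its values were seen. The telomerase RNA Terc (-3.45 ± 0.28), Rn7sk (-2.94 ± 0.34), the RNase MRP RNA Rmrp (-1.53 ± 0.30) and the RNase P RNA Rpph1 (-1.77 ± 0.39) fell. Leaving out cytosol replicate 1 ended the calls of Rmrp and Rpph1, and leaving out cytosol replicate 2 that of Rpph1 (limma adjusted p up to 0.14).

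Among 1227 named genes with a mean value of at least 1000, the pattern over the 4 libraries most like that of summed Rn7s1 and Rn7s2 was sought by the root mean square distance between log2 values centred on each gene's mean. The 5 closest were mt-Nd5 (distance 0.089), Ddr2 (0.094), Sh3pxd2a (0.14), Net1 (0.15) and Rny3 (0.18). Ddr2, a collagen receptor, stood at 1677 and 1305 in cytosol and 10902 and 8141 in migrasome. Sh3pxd2a, which encodes the scaffold Tks5 of invadopodia, stood at 687 and 603 in cytosol and 4035 and 4036 in migrasome. Rn7s6, with a distance of 0.24, came after these. With only 4 libraries a likeness of this kind mostly states that the genes share a large difference between the groups.

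The members that passed with wide margins kept their calls in every setting tried. Over the pseudocount, filter, scaling, tool, block and left-out libraries, Rn7s1 ranged from 2.49 to 3.20, Rn7s2 from 2.12 to 2.76 and Srprb from -2.28 to -1.81. Scaling every library to the same total moved the median of all genes tested from -0.0043 to -0.28, and quantile normalization moved it to 0.10. Under the former the differences of Srp19 and Srp72 changed sign, to -0.22 and -0.0072, with neither passing in any setting.

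**Figure D5:**
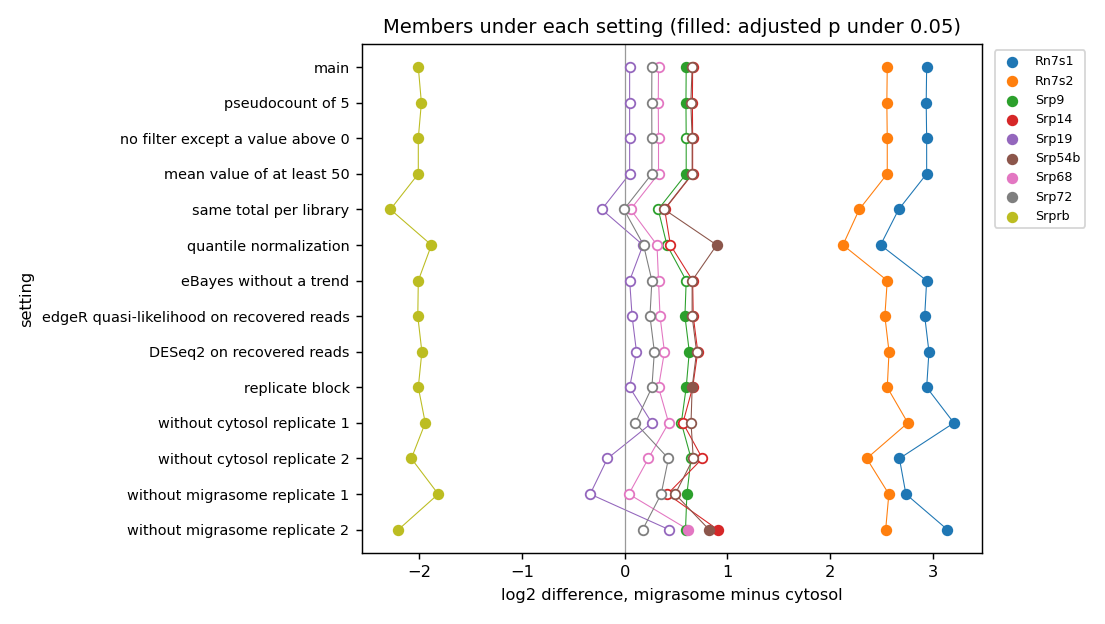
Log2 difference of each tested gene (coloured lines) under each setting, filled where the adjusted p is under 0.05. Rn7s1, Rn7s2 and Srprb are filled in every row, while Srp9, Srp14, Srp54b and Srp68 change between filled and open and Srp19 and Srp72 are open throughout.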

How the data were processed

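Each deposited value is a normalised signal, a gene's read count scaled by the authors with a single size factor for the library, as the tools named in the submitters' processing notes (cutadapt, Trimmomatic, FastQC, STAR, HTSeq, DESeq; build GRCm38) and the values show. No source used here gives the annotation, strand setting or treatment of multi-mapping reads, which leaves genes that overlap or share sequence uncertain. Whole reads were recovered for 100% of values (tolerance 0.001). Libraries were grouped by title. Genes reaching 10 in 2 or more libraries were tested with limma 3.58.1 in R 4.3.3 (log2(value + 1), trend, no replicate block), which understates changes of low genes. edgeR 4.0.16 and DESeq2 1.42.0 ran on recovered reads as alternatives and called 3135 and 2739 genes. The genes, lists and settings were chosen with earlier results of these data known. All 10 genes are named. From each other list the rule took up to 4 called genes with the largest differences and the 2 most abundant, and the 5 genes most like 7SL in pattern. Positions and exon lengths came from GENCODE M21; the sequences of the 7SL genes are not reported here. Shared stretches of 50 bases were searched in its transcripts, on the same strand, without the genome. Figures used matplotlib 3.10.9.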

Additional observations from a re-analysis of the deposited data

How the results depend on the processing

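Of 2862 genes called, 943 were higher and 1919 lower. Without a filter 1741 were called (393 higher), with a replicate block 4423 (1802 higher), and leaving out a library gave 1331 to 4899 (212 to 2061 higher, 1090 to 2838 lower). Genes called higher numbered 316 at the same total per library, 483 without the variance trend and 1110 with quantile normalization. That is 11.2%, 22.4% and 44.2% of the calls, against 32.9%. Of the 10 SRP genes 9 were tested, and 3 were higher (33.3%, beside 8.68% of all genes tested). The identical copies Rn7s1 and Rn7s2 are 2 of these 3. With the copies of 7SL and of Srp54 merged, 2 of 8 were higher. With a replicate block 5 were higher, Srp14 (limma adjusted p = 0.0089) and Srp54b (0.016) being added. Leaving out a library changed the count. The differences between replicates 1 and 2 in migrasome and in cytosol correlated at 0.23 across 10860 genes, which are not independent. No label says what a replicate number marks, and 2 pairs do not settle whether the numbers pair the libraries. With the block 3 genes of RNA polymerase III and its factors were higher and 2 lower. The 1 lower call, Srprb, was kept in every setting. Of the pathway genes 6 were higher. Limma called 0 without a filter (7 at an unadjusted p under 0.05), 0 at the same total per library (4) and 0 without the trend (6), 1 with quantile normalization, and 0 to 6 without a library, while edgeR and DESeq2 each called 7. The lower pathway genes numbered 14 to 22 in all settings. Srp19 ranged from -0.34 to 0.43 without a library (-0.17 without cytosol replicate 2, -0.34 without migrasome replicate 1) and was -0.22 at the same total per library, where Srp72 was -0.0072. The 7SL to SRP protein mRNA difference ranged from 2.10 to 2.69 over the choices of members, the left-out libraries and the replicate block. The highest value came with Srprb included among the mRNAs. The ratio to the receptor mRNAs alone is left out of this range. The causes were not tested. Depth limits Srprb in migrasome, which rests on 88 and 124 reads. Fewer reads lie under the migrasome values of Tram2 (15 and 22), Sec61a2 (29 and 55) and Caml (32 and 66).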

Other observations

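The split of reads between the identical copies Rn7s1 and Rn7s2 was not the same in every library. Rn7s1 held 50.9% of their reads in cytosol replicate 1 (Wilson 95% interval 49.2% to 52.5%) and 48.6% in cytosol replicate 2 (46.8% to 50.5%). In migrasome it held 60.0% in replicate 1 (59.1% to 60.9%) and 52.6% in replicate 2 (51.7% to 53.5%). Migrasome replicate 1 thus had 7172 reads on Rn7s1 and 4776 on Rn7s2, a gap beyond counting error for copies whose 300 annotated bases do not differ. The log2 ratio of the copies, 0.37 ± 0.31 (SD, n = 2) in migrasome and -0.015 ± 0.092 in cytosol, differed by 0.38 between the groups (exact two-sided permutation p = 0.33, the smallest value possible).

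In both groups 7SL was higher in replicate 1 than in replicate 2 when summed over Rn7s1 and Rn7s2, at 2713 and 1965 in cytosol and 16897 and 14566 in migrasome. Rn7s6 showed this order in cytosol only, and in migrasome it was slightly higher in replicate 2. Summed SRP protein mRNAs stood at 3107 and 3269 in cytosol and 4883 and 4081 in migrasome.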
